A study of Homo sapiens with 32 samples.

Results

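The comparison described here is that of tamoxifen with vehicle in LNCaP cells carrying the neutral MACC construct, with 4 libraries per treatment and 8 of the 32 libraries of the series. Its libraries were chosen by their labels (neutral construct, tamoxifen or vehicle) and not by any measured value. LNCaP is an androgen-dependent prostate cancer cell line that was grown from a metastasis. The neutral MACC joins a steroid receptor DNA binding domain to ERT2, the tamoxifen-binding form of the estrogen receptor's ligand binding domain, and to a 3X FLAG tag, and it carries no effector domain. It was delivered in a lentiviral pLenti PGK Blast backbone, and the cells were selected with blasticidin, with no cloning step described. All 8 libraries are labeled with the same construct, and the sources do not say whether the replicates are separate infections. The tamoxifen group received 2.5 µM tamoxifen for 48 h and the vehicle group ethanol for the same time, and both groups carry the construct. The other lines of the series, each with its own tamoxifen and vehicle libraries, are the parental line with no construct, the repressive line with a KRAB domain and the activating line with a VP64 domain.

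The DNA binding domain of the construct recognizes androgen response elements (AREs), in which a pair of hexamers related to AGAACA lie in inverted orientation around a spacer. The fused ERT2 domain is held outside the nucleus by heat shock proteins until tamoxifen binds it, after which the fusion can enter the nucleus and reach DNA. A fusion with neither KRAB nor VP64 brings no added silencing or activating domain to those elements, although it can occupy them. Tamoxifen also binds the cell's own estrogen receptors, and the parental line received the drug without the construct.

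To show the kind of element at issue, matches to AGNACA and TGTNCT separated by NNN (N stands for any base), a motif that reads the same on both strands, were searched within 50 kb on each side of the annotated start of each feature on GRCh37, and 5 matches near features that differed with tamoxifen are printed with the motif in capitals. Coordinates are those of the capitals.
FANCA, in an intron of the gene 20423 bases after its start, chr16:89862955-89862969: gtgtgagAGAACACGATGTTCTgggggtg
CRADD, intergenic, 18476 bases before the start, chr12:94052668-94052682: atcttctAGTACAAATTGTTCTgtaactt
C1QTNF9B, intergenic, 4410 bases before the start, chr13:24476044-24476058: ttctccaAGAACATCATGTCCTtaattca
NVL, intergenic, 16741 bases before the start, chr1:224534625-224534639: tggttccAGAACAGTTTGTTCTggaaaag
LTBR, in an intron shared by LTBR and SCNN1A 1280 bases after the LTBR start, chr12:6485484-6485498: gggccctAGGACATTCTGTTCTtttttac
Of 3822 tested features with an annotated start on a chromosome of the nuclear genome, 491 (12.8%) had such a match in the window. The same held for 13 of 90 features that were higher with tamoxifen (14.4%) and 13 of 80 that were lower (16.3%), both near the share of all features. No match was found in this window for C7orf49, TBPL1, MIA3 or AIDA, which had some of the clearest differences below. Around the start of the opposite-strand gene with the largest exon overlap, a match was found for 13 of 79 higher features (16.5%) and 12 of 64 lower (18.75%). Over all tested features with such a gene, that share was 386 of 2937 (13.1%). The motif fixes 10 of its 15 bases, so variant elements are missed. The paper reports that construct peaks were also enriched for weaker variants such as half-sites, and binding near these features was not tested here. Single hexamers, AGAACA or TGTTCT on either strand, were found in the 250 bases before the RefSeq start in 12.4% of 35116 single promoters. Counted by feature, such a hexamer was found for 233 of 2126 tested features with a promoter matched by symbol (10.96%). By the same count, a hexamer was found for 6 of 46 features higher with tamoxifen (13.0%) and 2 of 42 lower (4.76%). The promoter of KLK3, the prostate-specific antigen gene and a classical androgen-induced gene, holds one 170 bases before the start, and that of TMEM140, which lies opposite C7orf49, holds one 21 bases before it. Both stretches are printed on the plus strand of GRCh38, with the hexamer in capitals.
TMEM140, chr7:135148040-135148067: tgacatcagtcAGAACAaatgtaccaaa
KLK3, chr19:50854734-50854761: ctagtaattgcAGAACAgcaagtgctag

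The neutral libraries held 583481 to 1164808 counts, and the tamoxifen and vehicle totals overlapped. Tamoxifen replicate 1, the deepest, had 30.1% of its counts on features of ribosomal RNA and ribosomal proteins, against 9.15% to 11.8% in the other 7 libraries. Nearly all of that share (29.8% of the library) lay on CTD-2328D6.1 and AC010970.2, which matched the ribosomal DNA contig of GRCh37 at 97.7% and 89.2% identity over 433 and 1878 bases. Calls are therefore also given without this library. ESR1, whose ligand binding domain supplies ERT2, had 99 to 119 counts in the vehicle and 66 to 109 in the tamoxifen libraries, against 0 to 2 in the parental line, as the labels state. Its normalized count (counts scaled to a common library size with TMM factors and given per 1e6) averaged 141 with vehicle (122 to 160) and 128 with tamoxifen (113 to 145; exact permutation p = 0.286, two-sided, the smallest possible being 0.0286).

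The strand on which reads were assigned limits every name below. In the neutral libraries 63.2% (tamoxifen replicate 1) to 83.2% of counts at annotated features fell on features whose exons overlap those of a gene on the opposite strand. BEST1, a chloride channel gene of the retina, had 17800 to 28333 counts per library, while FTH1, the ferritin heavy chain gene on the opposite strand, had a normalized count of 28.5 with vehicle. The strand setting of the counting is not given in the sources used here, and reads of a feature and of its opposite-strand partner cannot be told apart, so partners are named beside several features they overlap. Counts are not per length, and levels are compared within a feature. In bulk RNA, a change in the share of cells that use a gene and a change in its RNA per cell cannot be told apart.

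Tamoxifen changed 188 of 3985 tested features (4.72%) in the neutral line, by edgeR's quasi-likelihood method with a Benjamini-Hochberg adjusted p threshold of 0.05. Of these, 104 were higher (2.61%) and 84 lower (2.11%), with median log2 fold changes of 0.52 and -0.66. The median over all tested features was -0.0036, and 15 of the higher and 24 of the lower features changed by more than 1 on the log2 scale. Without tamoxifen replicate 1, 161 features passed (4.04%; 100 higher, 2.51%, and 61 lower, 1.53%), of which 139 were among the 188. DESeq2's test called 124 (3.12%; 75 higher, 1.89%, and 49 lower, 1.23%), and 93.5% of them were among the 188. The count also rested on other single libraries, falling to 105 without tamoxifen replicate 3 and rising to 415 without tamoxifen replicate 4. Of the higher features 96, and of the lower 75, had no overlap between the treatments, as had 435 of all tested features (10.9%; 5.5% higher and 5.42% lower).

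**Figure D1:**
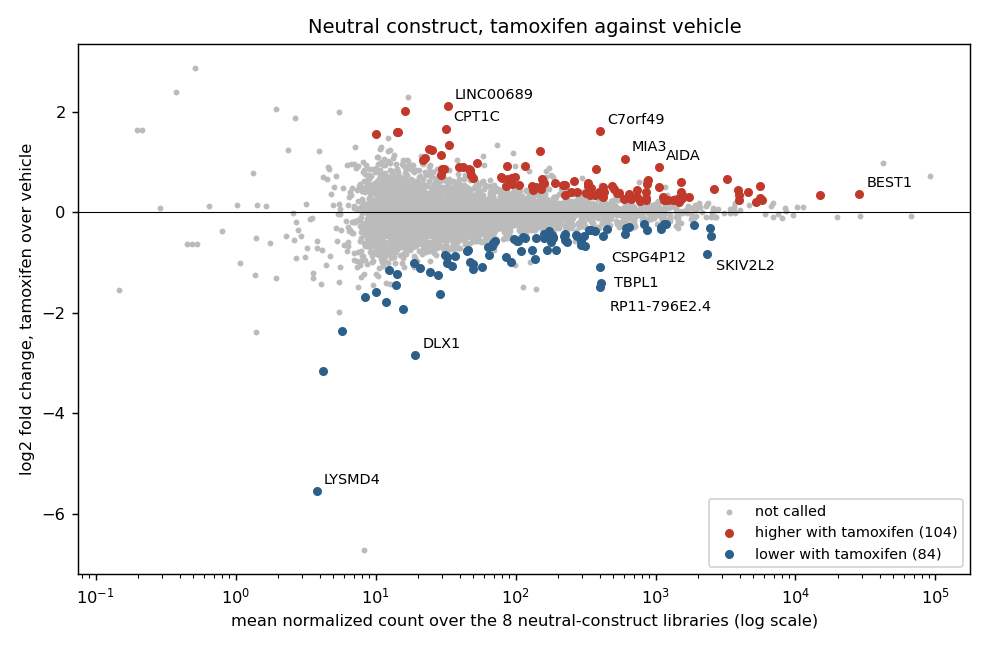
Each point is 1 tested feature, with its mean normalized count over the 8 neutral libraries on a log axis and its log2 fold change (tamoxifen over vehicle) on the other. The 104 features called higher are red, the 84 called lower blue and the rest gray (6 tested features without counts are not drawn), and the largest fold changes lie at low counts while C7orf49, MIA3, AIDA and TBPL1 stand apart at higher counts.

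The largest rises and falls below were taken only from called features whose treatments did not overlap, so that separation follows from the choice. Among the features that rose with tamoxifen, C7orf49 had the largest rise at a mean of 50 counts or more over the 8 libraries. This gene on chromosome 7 (134777115 to 134855547, minus strand, GRCh37) encodes a regulator of DNA end joining. Its normalized counts were 191, 194, 212 and 190 in vehicle replicates 1 to 4 and 615, 667, 586 and 574 in tamoxifen replicates 1 to 4. The groups were far apart, with a log2 fold change of 1.62 ± 0.08 (SE; adjusted p = 1.26e-10). TMEM140, which encodes a transmembrane protein and overlaps C7orf49 on the opposite strand, had 2005 with vehicle and 2185 with tamoxifen and did not pass the test (0.11, adjusted p = 0.308).

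MIA3 and AIDA are neighbors on chromosome 1 whose annotated ends lie 5 bases apart on opposite strands. MIA3, which overlaps RP11-378J18.8, encodes TANGO1, which loads large cargo such as collagen at exit sites of the endoplasmic reticulum. It had normalized counts of 350, 372, 430 and 390 with vehicle and 797, 810, 853 and 809 with tamoxifen, a log2 fold change of 1.07 ± 0.07 (adjusted p = 3.44e-09). AIDA, an axin-interacting protein gene that lies opposite BROX, had 685, 737, 744 and 766 with vehicle and 1437, 1414, 1389 and 1306 with tamoxifen, a log2 fold change of 0.91 ± 0.07 (adjusted p = 8.83e-09). In both genes every tamoxifen library exceeded every vehicle library, as the naming rule required. BROX itself, a gene of the ESCRT-associated BRO1 family, had at most 3 counts in any neutral library.

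The other features that rose most included BX842568.2, a processed pseudogene on chromosome X, at 88.3 ± 7.99 (SD, n = 4) with vehicle and 209 ± 23.1 with tamoxifen (log2 fold change 1.23, adjusted p = 1.72e-06). MIPOL1 rose from 79.9 to 152 (0.92, adjusted p = 0.00102), and LGALS8-AS1, opposite the galectin gene LGALS8, from 59.8 to 114 (0.92, adjusted p = 0.000846). HEATR1, a ribosome biogenesis gene at the other end of the same locus, was named after its values were seen and rose from 1209 to 1856 (0.60, adjusted p = 2.16e-05), whereas LGALS8 was at 647 and 641. NUPR1, a stress-inducible chromatin protein gene, rose from 71.7 to 117 (0.69), and C1QTNF9B, a secreted C1q/TNF-related protein gene, from 75.0 to 123 (0.70). The remaining members of the 12 were RP11-597D13.9, opposite FAM198B (0.85), NUDT3, a phosphohydrolase gene opposite RP11-513I15.6 (0.70), VPS51, a subunit of an endosomal tethering complex opposite TMEM262 and AP003068.9 (0.69), and RP11-2C24.6 (0.67). Of the 12, 9 passed the test under every alternative that could be computed. NUDT3 was lost without vehicle replicate 2 (adjusted p = 0.0511), VPS51 without tamoxifen replicate 1 or 3 or vehicle replicate 2, 3 or 4 (largest adjusted p = 0.0761), and RP11-597D13.9 without tamoxifen replicate 3 or any 1 vehicle replicate (largest adjusted p = 0.0788).

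Of the features that fell, a noncoding RNA gene opposite BTG1 and TBPL1 changed most by the same rule. The first, ENSG00000245904 on chromosome 12 (92539349 to 92620333, plus strand), lies opposite BTG1, an antiproliferative gene, and had normalized counts of 648, 606, 578 and 553 with vehicle and 251, 201, 216 and 179 with tamoxifen. The treatments did not overlap, as the naming rule required, and the log2 fold change was -1.49 ± 0.10 (adjusted p = 3.44e-09). BTG1 had 1 to 7 counts in the vehicle and 1 to 2 in the tamoxifen libraries and was not tested.

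TBPL1, a gene for a TBP-related factor on chromosome 6 (134273308 to 134311570, plus strand), had 497, 610, 684 and 592 with vehicle and 216, 220, 216 and 253 with tamoxifen (log2 fold change -1.41 ± 0.09, adjusted p = 3.44e-09). SLC2A12, which encodes the glucose transporter GLUT12 and overlaps TBPL1 on the opposite strand, had 34.6, 46.8, 36.2 and 38.8 with vehicle and 18.1, 15.4, 16.5 and 15.7 with tamoxifen (-1.24 ± 0.23, adjusted p = 0.00272). Both features of this locus fell with no overlap between treatments, which the naming rule required of TBPL1 but not of SLC2A12. Both calls held without tamoxifen replicate 1 and with DESeq2.

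CSPG4P12, a proteoglycan pseudogene on chromosome 15, had normalized counts of 515, 571, 554 and 556 with vehicle and 272, 252, 261 and 255 with tamoxifen (log2 fold change -1.09 ± 0.08, adjusted p = 8.83e-09). As a member of a family of near-identical copies, it may share reads with them, as may CICP14 (-0.76) and POM121, a nuclear pore gene opposite NSUN5P2 (-0.66). SKIV2L2, which encodes the MTR4 helicase of the nuclear exosome and lies opposite PPAP2A, a lipid phosphatase gene, had 2648, 3071, 3338 and 2873 with vehicle and 1580, 1603, 1770 and 1840 with tamoxifen (-0.83 ± 0.06, adjusted p = 2.70e-08). All 4 tamoxifen values lay below the vehicle range, as the naming rule required, while PPAP2A was at 62.2 and 55.4 (-0.19, adjusted p = 0.721). LRRC8A, a subunit of the volume-regulated anion channel with no opposite-strand exon, fell from 124 ± 9.80 to 63.5 ± 12.3 (-0.98 ± 0.16, adjusted p = 0.000568).

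The rest of the 12 were GP1BA, a platelet glycoprotein gene opposite CHRNE (-0.90), AP1G2, an adaptor complex gene opposite RP11-66N24.3 and RP11-66N24.4 (-0.76), AC073834.3, opposite TTC30A (-0.66), RP11-798M19.3, opposite the glycosyltransferase gene GALNT7 (-0.66), and ILK, the integrin-linked kinase gene opposite TAF10 (-0.60). Of the 12, 10 passed under every alternative computed. ILK was lost in 9 of 16 alternatives, among them the omission of tamoxifen replicate 1 or 2 or of any 1 vehicle replicate (largest adjusted p = 0.166). AC073834.3 was lost in 6 of 16, among them the omission of tamoxifen replicate 3 or vehicle replicate 1, 2 or 4 (largest adjusted p = 0.131).

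**Figure D2:**
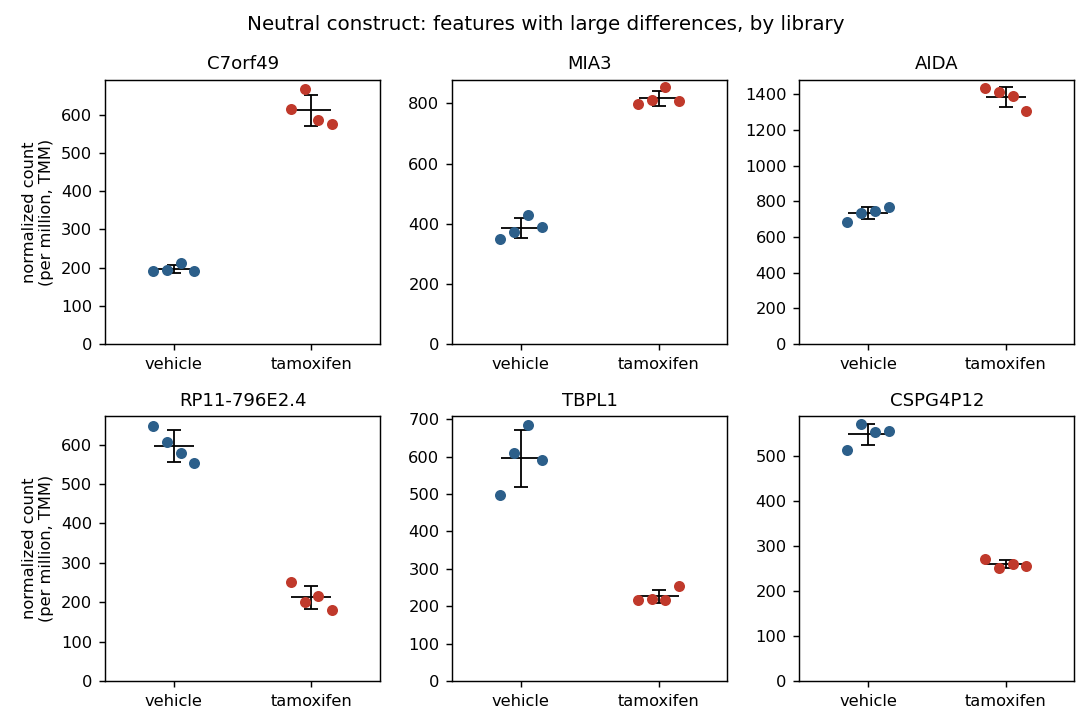
Normalized counts (per 1e6 after TMM scaling) of 6 features in the 4 vehicle (blue) and 4 tamoxifen (red) libraries of the neutral line, with each group's mean and SD in black and axes that start at 0; the lower left panel is the noncoding RNA opposite BTG1, under its symbol. In each panel the tamoxifen and vehicle points are separate, as the rule that chose these features required. Tamoxifen points lie from 574 to 667 against 190 to 212 for C7orf49 and from 216 to 253 against 497 to 684 for TBPL1.

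Both features of an opposite-strand pair could be compared where each was tested. There were 84 such entries for 75 of the changed features, with a separate entry for each changed member of a pair. The partner's log2 fold change had the same sign in 44 entries and the opposite sign in 40. The share of equal signs over all tested pairs was not computed. Both members passed the test at 6 loci, which are therefore entered for each member. Besides TBPL1 and SLC2A12, the pair FANCA (-0.57) and ZNF276 (-0.48) fell together, and RP11-597D13.9 (0.85) and RP11-597D13.8 (1.09) rose together. EMG1, a ribosome biogenesis gene, rose by 0.64 while LPCAT3, a phospholipid acyltransferase gene, fell by 0.38, and C5orf45 rose by 0.41 while SQSTM1, the autophagy receptor p62, fell by 0.46. TSR1 rose by 0.34 and SRR fell by 0.23. At each of these 5 other loci at least 1 member lost its call in some alternatives. SRR was lost in 12 of 16, including the omission of any 1 library but tamoxifen replicate 4 (largest adjusted p = 0.452). ZNF276 was lost in 8, among them tamoxifen replicates 1, 2 and 3 and vehicle replicates 1, 2 and 4 (largest adjusted p = 0.154), and SQSTM1 in 7, among them tamoxifen replicates 1 and 3 and vehicle replicates 1, 2 and 4 (largest adjusted p = 0.130). Calls also ended without tamoxifen replicate 1 for RP11-597D13.8, without tamoxifen replicate 2 for TSR1 and without tamoxifen replicate 3 or vehicle replicate 3 or 4 for LPCAT3 (largest adjusted p = 0.0803, 0.0839 and 0.0746).

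Several large changes lay at counts below the minimum of the naming rule, and these were chosen after their values were seen. DLX1, a homeobox transcription factor gene, had 27, 21, 28 and 31 counts with vehicle and 5, 5, 2 and 1 with tamoxifen (log2 fold change -2.84 ± 0.35, adjusted p = 3.16e-05). CPT1C, a brain-type carnitine palmitoyltransferase gene, had 7, 14, 12 and 15 with vehicle and 45, 27, 30 and 36 with tamoxifen (1.67 ± 0.24, adjusted p = 0.000218). LINC00689 had 6 to 13 and 34 to 44 counts (2.12 ± 0.25, adjusted p = 1.98e-05). NVL, a nucleolar ATPase gene, had 3 to 8 and 10 to 24 counts (2.02 ± 0.35, adjusted p = 0.00143). These 4 kept their calls in every alternative computed. LYSMD4, opposite MEF2A, had 6 counts in each vehicle library and 0 in each tamoxifen library, at least 1.73-fold lower when each tamoxifen library is set to a floor of 3 counts. It was not called when all 32 libraries were fitted together (adjusted p = 0.308). CRADD, an adaptor gene of the apoptosis pathway, had 24 counts over the vehicle and 2 over the tamoxifen libraries, a ratio of 9.45 (95% exact binomial interval 2.65 to 93.3, counting error only). MYC, the proto-oncogene, had 13 to 18 counts with vehicle and 3 to 8 with tamoxifen (-1.23 ± 0.32, adjusted p = 0.0300). The MYC call was lost in 8 of 15 alternatives, including DESeq2, the omission of tamoxifen replicate 1 or 2 and that of any 1 vehicle replicate (largest adjusted p = 0.163), and that of CRADD in 5 of 16, among them tamoxifen replicates 1 and 3 and vehicle replicates 3 and 4 (largest adjusted p = 0.108).

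Of 32 androgen-responsive genes, 13 were tested, and 1 was called lower and 0 higher, against 2.11% and 2.61% of all tested features. At an unadjusted edgeR p under 0.05 there were 4. The median log2 fold change was 0.04 against -0.0036 over all features. The filter used all 8 groups, and some members passed it through another line: ZBTB16 had 42 to 58 and FKBP5 59 to 79 counts in the activating line with tamoxifen. The called gene was ZBTB16, an androgen-induced zinc finger gene, with 8, 6, 8 and 9 counts with vehicle and 1, 2, 2 and 0 with tamoxifen (-2.37 ± 0.59, adjusted p = 0.0219). That call was lost without tamoxifen replicate 1, without vehicle replicate 1, 3 or 4 and with DESeq2 (largest adjusted p = 0.0980). KLK3 had normalized counts of 30.9, 58.5, 36.2 and 69.3 with vehicle and 35.1, 34.1, 40.5 and 48.8 with tamoxifen, and the groups overlapped (-0.33 ± 0.25, adjusted p = 0.563). KLK2, the neighboring kallikrein gene, was at 0.04 ± 0.32 (adjusted p = 0.966) and FKBP5, a co-chaperone of steroid receptors, at -0.28 ± 0.52 (adjusted p = 0.857). TMPRSS2, a transmembrane protease gene, had 8 to 13 counts with vehicle and 3 to 9 with tamoxifen and was below the expression filter. KLK3 had 20 to 59 counts per library, at which differences of the size of these standard errors were not detectable. The strand limit given above applies here too. Whether these counts reflect the RNA of the named genes was not tested, so an unchanged androgen response is not shown. Of 6 tested features opposite a member 0 were called, and CMC2, opposite CENPN, was at 604 with vehicle and 926 with tamoxifen (0.61, adjusted p = 0.0503) and was called higher with DESeq2 and without tamoxifen replicate 1. HRNR, the epidermal hornerin gene, was at 364 ± 34.7 and 349 ± 33.6 (-0.08 ± 0.10, adjusted p = 0.764).

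**Figure D3:**
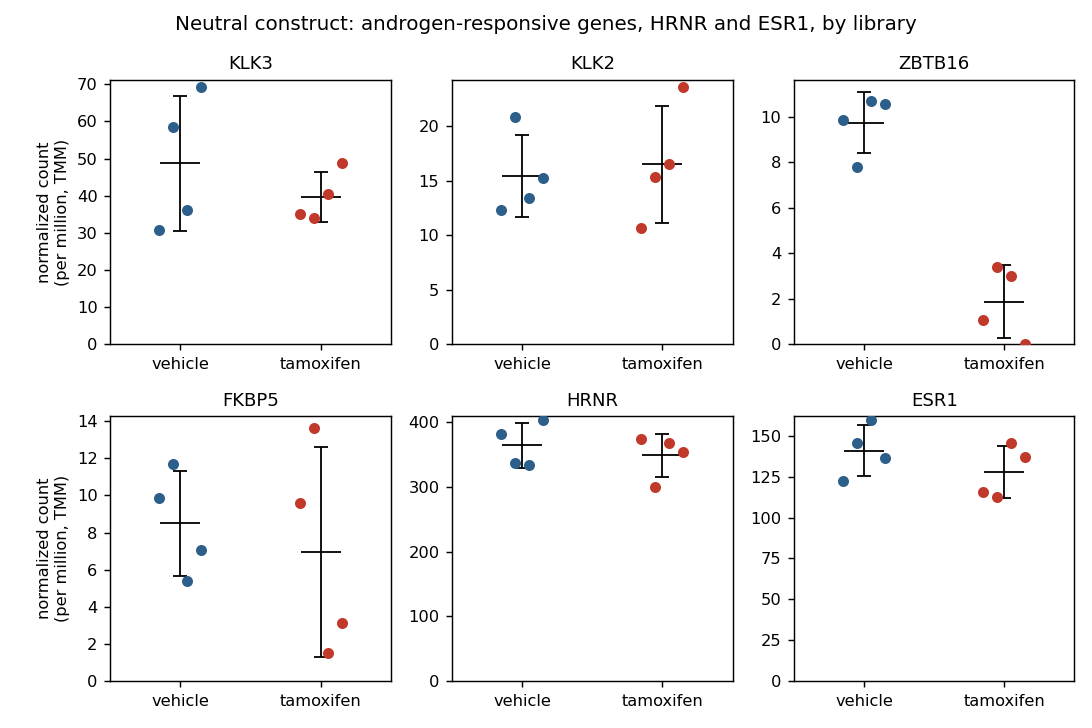
Normalized counts (per 1e6 after TMM scaling) of KLK3, KLK2, ZBTB16, FKBP5, HRNR and ESR1 in the 4 vehicle (blue) and 4 tamoxifen (red) neutral libraries, with mean and SD in black. The treatments overlap in every panel except that of ZBTB16, where the counts are few.

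Luminal, cell cycle and metabolic lists held few changes. The luminal epithelial markers had 10 of 17 genes tested and 0 called by edgeR or DESeq2 (2 at an unadjusted edgeR p under 0.05), with the keratin gene KRT8 at 1065 and 1321 (log2 fold change 0.30, adjusted p = 0.202). For proliferation, 5 of 43 genes of S phase and 8 of 54 of G2/M were tested and 0 were called by either tool (0 and 1 at an unadjusted edgeR p under 0.05), with medians of -0.11 and -0.14 and MKI67 at -0.24 ± 0.36 (adjusted p = 0.803). Estrogen receptor targets (2 tested), neuroendocrine (1), mesenchymal (2), sterol synthesis (2), stress response (5) and interferon (1) genes also had 0 calls by either tool, with 1 sterol synthesis gene and no other at an unadjusted edgeR p under 0.05, and 0 xenobiotic genes were tested. The basal genes that passed the filter, KRT5 and KRT6A, had no counts in the neutral libraries and passed through the activating line, so they give no result here. Of 13 markers of stroma, endothelium and blood, 12 were among the counted genes. CD68 was tested and not called and the others of the 12 were below the filter, but ACTA2-AS1, opposite the smooth muscle actin gene, rose from 18.1 to 41.1 (1.15, adjusted p = 0.00655). SLC2A12 was the 1 called gene of 12 tested in the glycolysis and hypoxia list, and SQSTM1 the 1 of 4 in the lysosome and autophagy list. Both were lower, as were 2.11% of all tested features. Over all tested features, 4.72% were called by edgeR and 3.12% by DESeq2, so 0 or 1 call among few genes gives no result about a list. With most members below the filter, these lists describe few genes, and the strand limit given above applies to them as well.

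Features of the mitochondrial genome rose in part: 4 of 17 tested were higher and 0 lower, against 2.61% of all features. MT-ND6, a complex I subunit gene and the only protein gene on the light strand, had normalized counts of 3990, 4758, 4395 and 5058 with vehicle and 6584, 6591, 6888 and 6490 with tamoxifen (log2 fold change 0.53 ± 0.07, adjusted p = 3.90e-05). MT-ND1, another complex I gene, had 448 to 490 with vehicle and 558 to 667 with tamoxifen (0.38 ± 0.07, adjusted p = 0.00372), and MT-ND2 had 350 to 462 and 470 to 727 (0.47 ± 0.12, adjusted p = 0.0315). MT-RNR1, the small ribosomal RNA, had 2 to 9 and 8 to 30 counts (1.60 ± 0.40, adjusted p = 0.0219). The 13 others included MT-ND5 (-0.21), MT-ND4 (-0.29) and MT-CYB (0.41), which did not pass, and the median of the 17 was -0.05. MT-ND2 was lost without tamoxifen replicate 2 or 3 or vehicle replicate 2 or 3, and MT-RNR1 without tamoxifen replicate 1 or 3 or vehicle replicate 1 or 4 (largest adjusted p = 0.107 and 0.117). MT-ND1 and MT-ND2 were also lost when all 32 libraries were fitted together (0.0988 for MT-ND1), MT-RNR1 with DESeq2, and MT-ND6 when only features without opposite-strand exon overlap were tested (0.0547). As a share of the library, the mitochondrial genome took 0.936% ± 0.0886 with vehicle and 1.07% ± 0.194 with tamoxifen (exact permutation p = 0.257, two-sided). Without tamoxifen replicate 1 the mitochondrial share differed by 0.215 percentage points, with every tamoxifen library above every vehicle library (exact permutation p = 0.0571, two-sided). The ribosomal share was 10.6% ± 0.780 and 15.6% ± 9.75 (exact permutation p = 0.486, two-sided), and it differed by 0.142 percentage points without tamoxifen replicate 1.

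**Figure D4:**
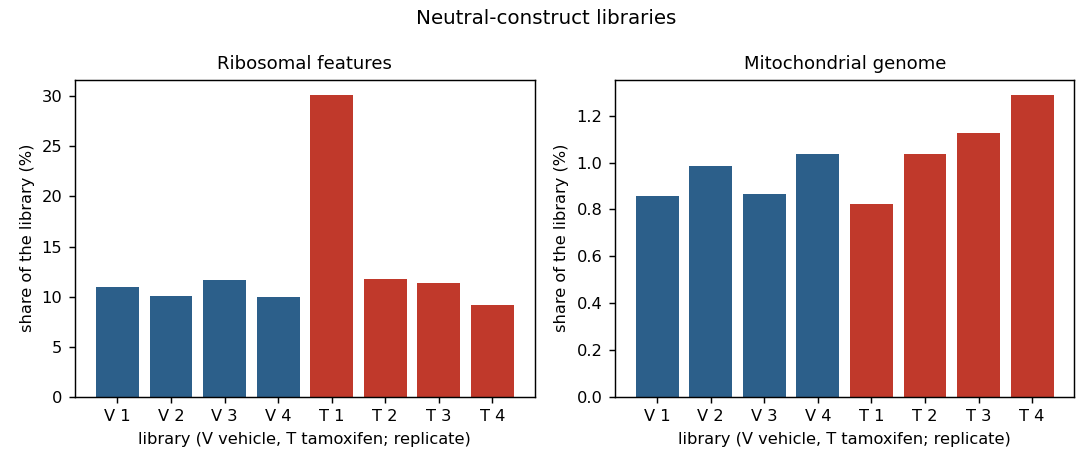
Share of each neutral library's counts on ribosomal features (left) and on the mitochondrial genome (right), in percent, for vehicle (V, blue) and tamoxifen (T, red) replicates 1 to 4. Tamoxifen replicate 1 reaches 30.1% ribosomal counts where the others lie between 9.15% and 11.8%, and it has the lowest mitochondrial share, 0.825%.

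In the parental line, which carries no construct, tamoxifen changed 0 of 3985 features (0%) by the same edgeR test. At an unadjusted edgeR p under 0.05 there were 306, against 671 in the neutral line. Parental libraries held 454982 to 669381 counts, against 583481 to 1164808 in the neutral line. The neutral line also differs by lentiviral delivery and blasticidin selection, which cannot be told apart from the construct here. The difference between the neutral and parental responses passed the test in 59 features (1.48%), 34 with a higher (0.853%) and 25 with a lower response (0.627%) in the neutral line, and 52 of the 59 were among the 188. Of the 188 themselves, 27.7% thus differed from the parental response by this test, and for the others a difference was not shown. Both tests use the same neutral libraries, so the overlap between their calls is largely built in. The noncoding RNA opposite BTG1 differed most among those with lower responses and at least 50 counts, at -1.56 ± 0.15 (adjusted p = 1.21e-08), followed by TBPL1 at -1.30 ± 0.14 (adjusted p = 6.16e-08) and CSPG4P12 at -1.25 ± 0.14 (adjusted p = 1.25e-07). Among those with higher responses, C7orf49 differed by 1.36 ± 0.11 (adjusted p = 8.35e-10), MIA3 by 1.22 ± 0.11 (adjusted p = 4.56e-09) and ANKRD20A8P, an ankyrin repeat pseudogene, by 1.02 ± 0.21 (adjusted p = 0.00611). ANKRD20A8P had 60.5, 68.9, 80.4 and 64.6 with vehicle and 105, 121, 106 and 104 with tamoxifen in the neutral line. The count of 59 became 37 without neutral vehicle replicate 1 and 34 without neutral vehicle replicate 2 or parental tamoxifen replicate 4.

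The lines share no vehicle libraries, so their calls could be set beside each other. In the repressive line, where tamoxifen changed 17.8% of features (7.8% higher and 9.99% lower), 121 of the 188 were also called (64.4% of the neutral and 17.1% of the repressive calls). The direction was the same in 112 of them, 59 higher and 53 lower. Over all tested features, 65.0% had the same sign in the neutral and repressive lines and 53.9% in the neutral and activating lines. In the activating line, with 44.8% of features called (22% higher and 22.8% lower), 135 of the 188 were called (71.8% of the neutral and 7.56% of the activating calls), 75 in the same and 60 in the opposite direction. With the repressive construct TBPL1 fell by 1.61 (adjusted p = 5.91e-14), while with the activating construct it rose by 0.28 (adjusted p = 0.0144), and the corresponding values of SKIV2L2 were -1.35 and 1.24 (adjusted p = 1.12e-15 and 9.75e-13). MIA3 and AIDA rose in the repressive line (0.47 and 0.36) and fell in the activating line (-1.67 and -1.81), while C7orf49 rose in both (1.17 and 0.94). DLX1 was at -6.13 and 5.80 in these lines.

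**Figure D5:**
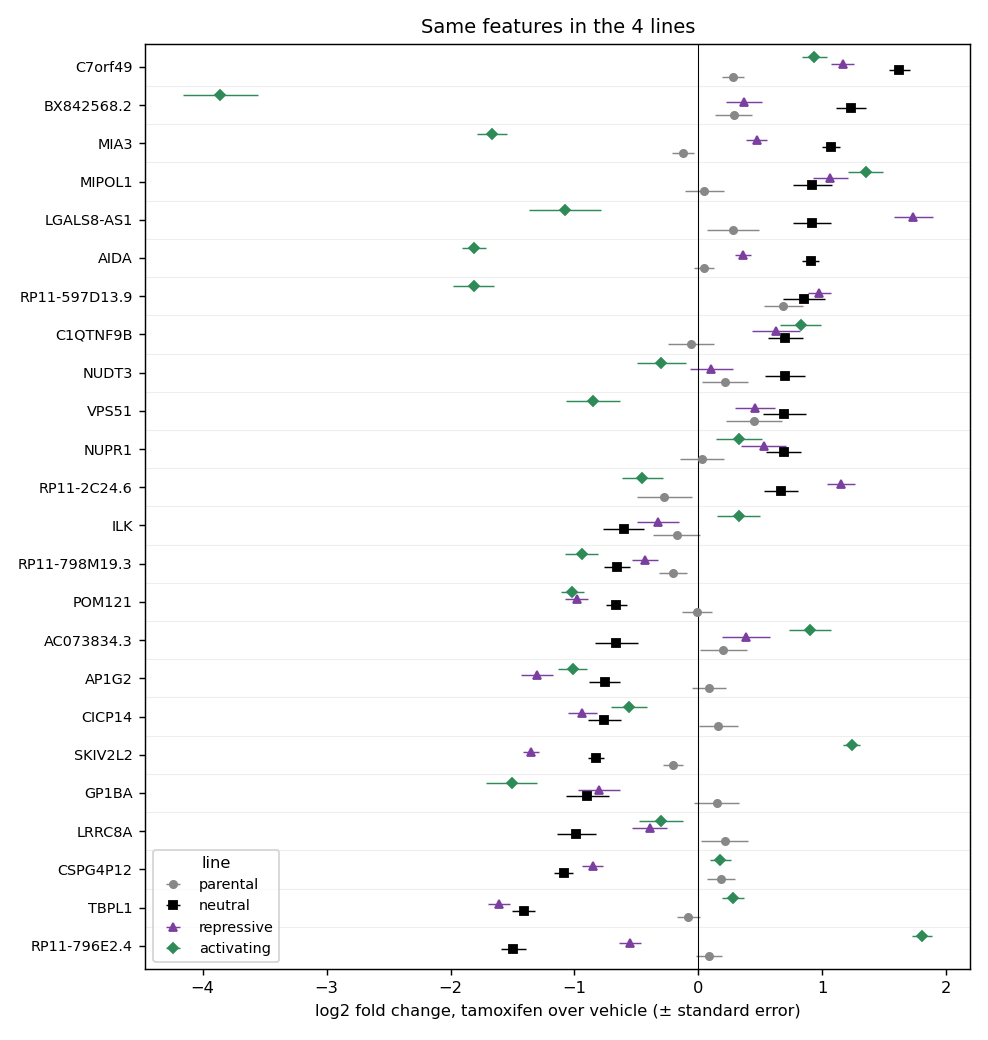
Log2 fold changes (tamoxifen over vehicle, with standard errors) of the 24 features named for the size of their rise or fall with the neutral construct, shown for the parental (gray circles), neutral (black squares), repressive (purple triangles) and activating (green diamonds) lines. The parental points lie between -0.28 and 0.68, repressive points lie on the neutral side of 0 for 23 of the 24, and activating points fall on either side. Over all tested features, 65.0% had the same sign in the neutral and repressive lines.

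The repressive and neutral responses differed in 135 features (3.39%; 61 higher, 1.53%, and 74 lower, 1.86%, in the repressive line), 40 of them among the 188. The noncoding RNA opposite BTG1 fell less in the repressive line than in the neutral line (difference 0.94, adjusted p = 1.10e-05), and C7orf49, MIA3, AIDA and BX842568.2 rose less there (differences -0.46, -0.60, -0.55 and -0.87). These features were named for large neutral changes, so a smaller change in another line partly follows from the choice. SKIV2L2 fell more in the repressive line (-0.53, adjusted p = 0.000237). For KLK3 and HRNR, which did not pass in the neutral line, the repressive response was lower by 1.71 (adjusted p = 0.0188) and 2.68 (adjusted p = 3.26e-07). NME7, a nucleoside diphosphate kinase gene opposite the sodium pump gene ATP1B1, rose in both lines and more in the repressive line (difference 1.12, adjusted p = 0.000944), and its neutral call was lost with DESeq2 and without tamoxifen replicate 2 or 3 or vehicle replicate 2 or 4 (largest adjusted p = 0.108).

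For the 9 features called in opposite directions in the neutral and repressive lines, the sign of the difference follows from how they were chosen, and its size is given as a description. MT-ND1, MT-ND2 and MT-ND6 rose in the neutral line and fell in the repressive line, with differences of -0.72, -0.86 and -0.78. LTBR, a lymphotoxin receptor gene opposite the sodium channel gene SCNN1A, rose by 0.27 in the neutral line and fell by 0.93 in the repressive line. CCDC152, opposite the selenoprotein P gene SEPP1, rose from 5265 to 6343 (0.25) and fell by 0.64 in the repressive line. SLC25A26, opposite LRIG1, SIAE and RP11-1151B14.4 also rose in the neutral and fell in the repressive line, and FAM13A-AS1 did the reverse. The neutral calls of LTBR, CCDC152, SLC25A26 and RP11-1151B14.4 were lost with DESeq2 and without tamoxifen replicate 3 (largest adjusted p over all alternatives 0.128, 0.0937, 0.0997 and 0.0997). LTBR, CCDC152 and RP11-1151B14.4 were also lost without tamoxifen replicate 2, LTBR without vehicle replicate 2 or 3, and RP11-1151B14.4 without tamoxifen replicate 4 or vehicle replicate 1, 2 or 3, whereas those of SIAE and FAM13A-AS1 held in every alternative computed. Losses for the mitochondrial genes are given above.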

How the data were processed

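RNA was sequenced from 32 libraries (Illumina Stranded mRNA Prep) in 8 groups of 4, of which the 8 neutral libraries are the subject here. The authors processed reads with nf-core/rnaseq against GRCh37, and the deposited table holds estimated counts per gene from Salmon 1.9.0. Per the labels and methods, their own testing used DESeq2 1.28.0. The strand setting and annotation release are not given in the sources used here.

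The 57773 genes were filtered with filterByExpr over the 8 groups, leaving 3985. Estimated counts were rounded. The main test was edgeR 4.0.16 (R 4.3.3) quasi-likelihood with TMM factors, fitted to the lines compared and adjusted by Benjamini-Hochberg over all tested features. Differences between lines were interaction terms. Standard errors are those implied by the F statistic. DESeq2 1.42.0, other filters and scalings, and the omission of each library were alternatives. The scripts were tested on simulated data. The labels call the replicates biological but do not say how cultures were separated, so p-values measure the spread between these libraries, which may be technical. Intervals and floors cover counting error only.

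Named features were the 12 largest rises and 12 largest falls among called features averaging 50 counts or more whose treatments did not overlap, plus called list members, the 3 largest differences from the parental response in each direction, and ESR1, KLK3, KLK2, FKBP5, TMPRSS2, NME7, HRNR and MKI67. Some genes of the rule are not reported here. Others were named after their values were seen. Members and lists were chosen with earlier results of these data known. ARE matches came from GRCh37 and promoters from RefSeq (GRCh38), matched by symbol.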

Additional observations from a re-analysis of the deposited data

Results flagged for a closer look

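In groups of 4, a library was marked where its gap to the nearest other exceeded 0.829 of the group's range, and 9 of 80 groups were marked (11.3%), where chance gives about 1 in 20. Tamoxifen replicate 1 had the highest total (1164808 counts) and ribosomal share (30.1%). The others were TBPL1 in tamoxifen replicate 4 (normalized count 253), LRRC8A in tamoxifen replicate 2 (81.9) and vehicle replicate 1 (138), ANKRD20A8P in tamoxifen replicate 2 (121), LGALS8-AS1 in tamoxifen replicate 4 (92.9), MIPOL1 in vehicle replicate 1 (54.3) and C7orf49 in vehicle replicate 3 (212).

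The test of the difference between the neutral and parental responses (log2, neutral minus parental) marked 17 named features. Most of them were named for a large neutral change or by this same test, so the marks partly follow from the choice. Positive differences were found for C7orf49 (1.36), MIA3 (1.22), ANKRD20A8P (1.02), RP11-2C24.6 (0.97), BX842568.2 (0.97), MIPOL1 (0.89) and AIDA (0.88). Negative differences were found for the noncoding RNA opposite BTG1 (-1.56), TBPL1 (-1.30), SLC2A12 (-1.26), CSPG4P12 (-1.25), LRRC8A (-1.17), GP1BA (-1.02), CICP14 (-0.89), AP1G2 (-0.82), POM121 (-0.63) and SKIV2L2 (-0.60).

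The difference between the repressive and neutral responses (log2, repressive minus neutral) marked 11. Several of these were named for large neutral changes, so a smaller repressive change partly follows from the choice. It was positive for NME7 (1.12), AC073834.3 (1.05), the noncoding RNA opposite BTG1 (0.94) and LGALS8-AS1 (0.81). It was negative for HRNR (-2.68), KLK3 (-1.71), BX842568.2 (-0.87), MIA3 (-0.60), AIDA (-0.55), SKIV2L2 (-0.53) and C7orf49 (-0.46).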

How the results depend on the processing

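In the comparison of neutral tamoxifen against vehicle, the 188 calls became 124 with DESeq2, 31 among the 902 features without opposite-strand exon overlap (fewer features were tested; 29 were among the 188) and 105 to 415 with 1 library left out, without tamoxifen replicate 3 and 4 respectively. With every gene with a count tested, 225 passed, 71.1% of them higher. The other alternatives gave 177 to 253. The 59 differences from the parental response became 11 without opposite-strand overlap, 37 without neutral vehicle replicate 1 and 34 without neutral vehicle replicate 2 or parental tamoxifen replicate 4, the range over single libraries being 34 to 70. The 135 differences between the repressive and neutral responses became 205 with the replicate block and 36 without opposite-strand overlap, and 90 to 145 with 1 library left out. The 7 calls among list members became 4 with DESeq2, 4 with at least 10 counts in every library, 11 with the replicate block, 3 without mitochondrial features, 4 without opposite-strand overlap and 4 to 13 with 1 library left out. Same-numbered tamoxifen and vehicle libraries correlated at -0.0073 to 0.150, with 2 of 4 best with their own number. Differently numbered libraries correlated at -0.208 to 0.139. Whether the numbers pair the libraries is not settled by these values, and the main test did not pair them. The replicate block gave 253 calls in the neutral line (184 among the 188) and 84 differences from the parental response. Signs turned for 3 genes that did not pass: FKBP5 at 0.039 without tamoxifen replicate 3 (-0.70 to 0.039 over single libraries), HRNR at 0.024 without vehicle replicate 4 (-0.13 to 0.024), and KLK2 at -0.17 without tamoxifen replicate 4, -0.0078 without vehicle replicate 1 and -0.026 without vehicle replicate 3 (-0.17 to 0.25). Of 58 named calls, 34 held in every alternative computed, 16 were lost with DESeq2, and 83 of 464 single-library omissions ended a call. None turned direction. The cause was not tested. With 583481 to 1164808 counts per library, most listed genes were below the filter, and the parts of depth and of strand assignment in this were not tested.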
